A study of Mus musculus with 4 samples.

Results

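Retinoid uptake and signalling in cultured hair follicle mesenchymal cells was read from 9 genes, Stra6, Rbp4, Aldh1a1, Aldh1a2, Aldh1a3, Crabp1, Crabp2, Rarb and Cyp26b1. The members were picked by symbol from the 51826 gene rows of the count table, and all 9 were found once. They were picked with counts of these libraries already known, so their differences between libraries are given as a description, with no test. RNA was sequenced from dermal papilla cells (DPCs), the mesenchymal cells at the base of the hair bulb, and from dermal sheath cells (DSCs), which surround the follicle. Low-passage cells were at passage 3 and high-passage cells at passage 9, and each of the 4 combinations was 1 library. The labels give the genotype as WT for all 4 groups, while the study's methods describe vibrissa (whisker) follicles of young EGFP-transgenic C57BL/6J mice, grown out in DMEM with fetal bovine serum. Neither names the number of mice or cultures behind a library. No difference below therefore has a replicate check, and passage cannot be told apart from the time or batch in which a library was made.

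Vitamin A circulates as retinol bound to the carrier protein that Rbp4 encodes, and Stra6 is the membrane receptor that takes retinol from this carrier into the cell. Retinol is oxidised to retinal and then, by the retinal dehydrogenases Aldh1a1, Aldh1a2 and Aldh1a3, to retinoic acid. In the cytosol retinoic acid is held by Crabp1 and Crabp2, of which Crabp2 is known for passing it to the nuclear receptors. Retinoic acid receptors such as Rarb bind DNA with a retinoid X receptor, and Cyp26b1 hydroxylates retinoic acid and so removes it. In skin, retinoic acid is known to act on the hair cycle, and Crabp1 is known to be expressed in papilla mesenchyme.

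Rarb is known as a direct target of retinoic acid, through a direct repeat in its promoter. The RefSeq promoter windows of build GRCm38.p6, which run from 250 bases before a start to 50 after it, were searched on both strands for this type of element. A hit was a pair of the half-sites AGGTCA or AGTTCA or GGGTCA or GGTTCA in the same direction with 5 bases between them. Windows were listed for 7 of the 9 members, with 12 starts in all, and those of Crabp2 and Aldh1a3 were not listed. Of the members, Rarb had the pair, and of the 47 listed genes among 63 other retinoid pathway genes only Cyp26a1 had it. The pair was found in 0.0974% of all 32851 windows. Both are shown because the counts of these genes were far apart, as given below. Capitals mark the pair with its spacer.
Rarb, chr14:16575507-16575535, minus strand, 37 to 53 bases before the start: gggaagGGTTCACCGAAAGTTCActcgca
Cyp26a1, chr19:37697770-37697798, plus strand, 16 to 32 bases before the start, pair on the opposite strand: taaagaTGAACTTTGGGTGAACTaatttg

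Upstream windows of the other members with a passage rise in papilla cells are given for reference, without exonic bases. Capitals mark a single half-site on either strand, which 43.7% of all windows hold. Of the stretches printed, only that of Aldh1a1 had one, and no match says only that these letters are not in the window. Over all listed starts, 1 of 2 for Aldh1a1 and 1 of 4 for Stra6 held a half-site in the full window. The 1 start of Cyp26b1 held 0. For Stra6 the first listed of its 4 RefSeq starts is shown, which lies inside the gene span of the deposited table.
Stra6, chr9:58128838-58129087, plus strand: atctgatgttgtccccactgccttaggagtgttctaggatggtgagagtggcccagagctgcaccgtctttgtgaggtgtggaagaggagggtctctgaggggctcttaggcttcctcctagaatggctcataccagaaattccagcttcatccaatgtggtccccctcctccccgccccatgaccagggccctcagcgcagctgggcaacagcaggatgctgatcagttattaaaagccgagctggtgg
Aldh1a1, chr19:20601718-20601960, plus strand: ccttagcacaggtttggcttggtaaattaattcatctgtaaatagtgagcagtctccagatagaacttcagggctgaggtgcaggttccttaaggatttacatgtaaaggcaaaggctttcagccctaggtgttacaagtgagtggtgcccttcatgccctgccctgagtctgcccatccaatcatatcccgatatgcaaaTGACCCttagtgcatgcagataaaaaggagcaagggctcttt
Cyp26b1, chr6:84593909-84594060, minus strand: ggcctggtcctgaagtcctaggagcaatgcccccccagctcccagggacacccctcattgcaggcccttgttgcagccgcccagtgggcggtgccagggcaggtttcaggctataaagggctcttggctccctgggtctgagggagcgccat

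Total counts ranged from 34981284 to 47604059 per library. Counts were scaled to a common library size (CPM) with TMM factors, and changes are differences between log2 CPM values, after addition of a prior count of 2. A change of 2 or more on this scale, which is 4-fold, is called here a rise or a fall. Brackets after a change hold a 95% exact Clopper-Pearson interval on the same scale, which sets the reads of 1 library against those of another and holds no error but that of counting. Even counts were in excess in every library, so a fragment may have been counted through each mate, in which case these intervals are too narrow. Of 27 intervals of the members, 22 excluded 0, and all 22 still did with counts halved. Gene positions are those of the deposited tables and match GRCm38. Where a gene had 0 counts, levels up to a floor of 3 counts remain possible, between 0.0658 and 0.0836 CPM depending on the library. Genes with a mean count of at least 10 were kept, which left 16734 genes and 7 of the 9 members. Aldh1a2 had 0 counts in every library, and Rbp4 had 4 counts in high-passage DSCs and 0 in the other 3 libraries. Stra6 passed this filter through its high-passage libraries alone.

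The labelled cell types were checked against markers, listed with earlier results known. The papilla sum was higher in DPCs at both passages. The sheath sum was higher in DSCs at high passage but not at low passage, and single markers went both ways. The 9 papilla markers summed to 176 CPM at low and 144 at high passage in DPCs, and to 151 and 71.7 in DSCs. Sox2 was higher in DPCs at both passages, with 1677 and 1491 counts against 269 and 178 in DSCs. Lef1 had 508 counts at low and 2 at high passage in DPCs, beside 101 and 55 in DSCs, so that it was 11.8-fold lower in DPCs at passage 9. At low passage Vcan and Alpl were lower in DPCs (112 and 0.217 CPM) than in DSCs (139 and 0.607 CPM). At high passage both were higher in DPCs, by log2 differences of 0.59 and 0.85, for Alpl on 10 and 6 counts. Sostdc1 had 61 counts at low and 0 at high passage in DPCs, and 0 and 2 in DSCs. Rspo3 had 70 and 196 counts in DPCs, and 60 and 99 in DSCs. Wif1 had 0 counts throughout, Corin at most 10 and Prom1 at most 7. The 6 sheath markers, Acta2 among them, summed to 9761 CPM in low-passage DPCs and 7731 in low-passage DSCs, and to 3538 and 6955 at high passage. The 8 fibroblast markers summed to 16939 CPM at low and 6024 at high passage in DPCs, where Col1a1 fell 5.95-fold and Col3a1 8.01-fold. Pdgfra was 2.67-fold and Dcn 1.31-fold higher at high passage in DPCs, and the other fibroblast markers were lower. In DSCs the sums were 25646 and 23154 CPM, and Dcn rose 22.6-fold. The keratinocyte markers Krt5 and Krt14 had 0 counts in all 4 libraries, and the summed level of all 12 keratinocyte markers was 5.65 CPM at low and 10.6 at high passage in DPCs, and 12.1 and 60.6 CPM in DSCs. The highest of these sums held 2307 counts of Dsp, a desmosome gene. Macrophage and leukocyte markers were lower at high passage. Their sum over 6 genes was 113 and 164 CPM in low-passage DPCs and DSCs, and 63.7 and 92.2 CPM at high passage, with Cd3e at 0 throughout. Schwann cell markers summed to 6.03 and 14.6 CPM at low passage and 5.38 and 7.57 CPM at high passage, and Sox10 and Foxd3 had 0 counts in both high-passage libraries. Endothelial markers summed to 2.42 CPM at low and 0.111 at high passage in DPCs, and to 5.64 and 1.08 in DSCs. The part of such cells, or of these marker changes, in the results was not tested. In these bulk libraries, fewer cells of a type and less RNA per cell cannot be told apart.

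**Figure D1:**
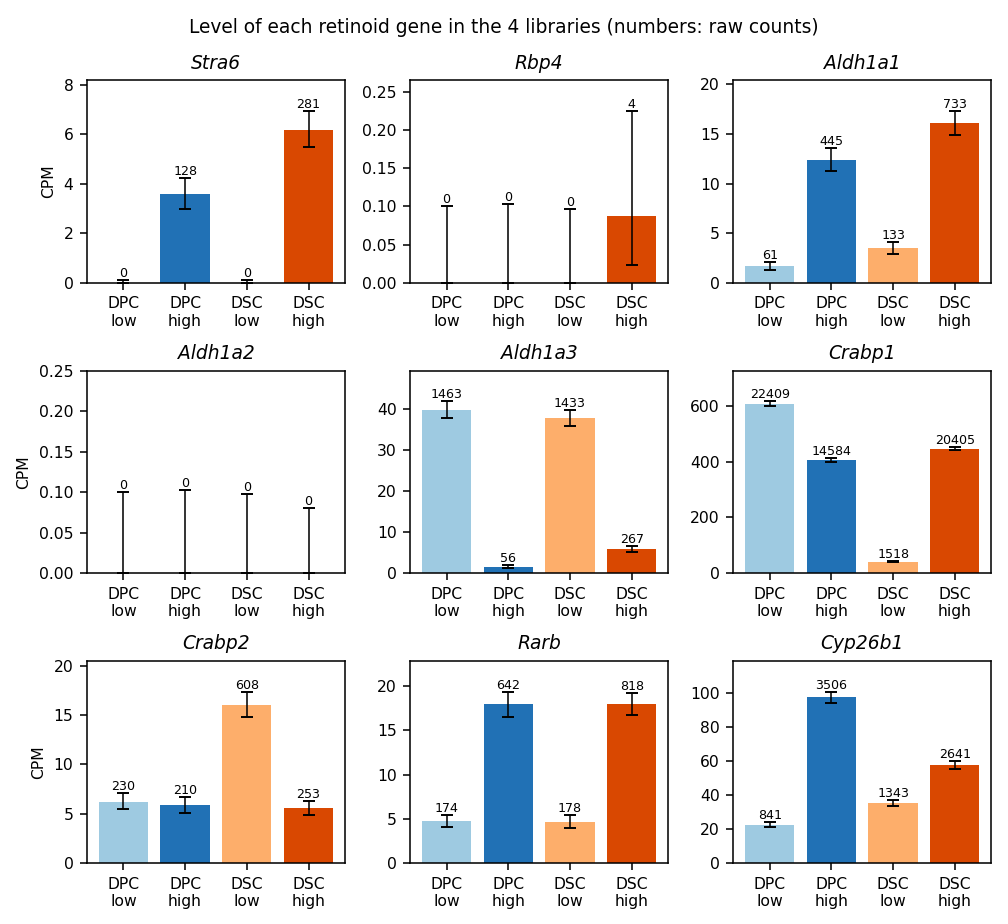
Level of each of the 9 members in CPM (y axis, linear, a separate scale for each gene) in low- and high-passage DPCs and DSCs, 1 library per bar. Numbers above the bars are raw counts and error bars are 95% exact Poisson intervals (counting error only). Stra6 had 0 counts in both low-passage libraries, and Crabp1 was lowest in low-passage DSCs.

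The uptake genes Stra6 and Rbp4 had no counts at passage 3. Stra6 (ENSMUSG00000032327, chromosome 9, 58063788 to 58153996, plus strand), the retinol receptor, had 0 counts in the passage 3 and 128 in the passage 9 library of DPCs, and 0 and 281 in those of DSCs. Both high-passage libraries were thus above both low-passage ones. Against a floor of 3 counts in the low-passage library, the level was at least 43.8-fold higher at high passage in DPCs and 77.9-fold in DSCs. The counting intervals reached lower than these values, to log2 changes of 5.13 in DPCs and 5.98 in DSCs. By log2 change Stra6 was number 26 from the top of the 16734 genes in DPCs and number 8 in DSCs. With 0 counts at low passage these places depend on the prior count. The gene was also chosen with its counts known, so nothing is read from them. High-passage DPCs had less of it than high-passage DSCs, with a log2 difference of -0.78 (-1.10 to -0.48). In absolute terms it stayed a minor transcript. Its deposited FPKM (fragments scaled by transcript length and library depth) was 1.14 for DPCs and 1.75 for DSCs at high passage, above 26.1% and 32.6% of the genes kept. It overlaps Ccdc33 on the opposite strand and Gm16131 on its own strand in GENCODE M21, with 0 shared exonic bases. For Rbp4 (ENSMUSG00000024990, chromosome 19, 38116620 to 38125321, minus strand), the carrier, the 4 counts in high-passage DSCs are close to the floor, and a change was not detectable at this depth.

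Of the retinal dehydrogenases, Aldh1a3 fell with passage and Aldh1a1 rose in both cell types. Aldh1a3 (ENSMUSG00000015134, chromosome 7, 66390890 to 66427517, minus strand) had 1463 counts at low and 56 at high passage in DPCs, and 1433 and 267 in DSCs. Both high-passage libraries were below both low-passage ones. It fell by 4.63 on the log2 scale in DPCs (-5.08 to -4.29), 24.7-fold. In DSCs it fell by 2.68 (-2.88 to -2.50), 6.40-fold. From the bottom of the ranked genes it was number 60 in DPCs and number 86 in DSCs. Aldh1a1 (ENSMUSG00000053279, chromosome 19, 20601961 to 20643462, plus strand) had 61 counts in the passage 3 and 445 in the passage 9 library of DPCs, and 133 and 733 in those of DSCs. The rise in DPCs was 2.87 (2.51 to 3.31). That in DSCs was 2.18 (1.93 to 2.47), an interval that spans the 4-fold line. Of its 50-base transcript windows 3.06% are shared with Aldh1a7, a close paralog with 36 and 22 counts in DPCs and 19 and 95 in DSCs. Aldh1a2 (ENSMUSG00000013584, chromosome 9, 71215789 to 71296243, plus strand) had no counts, and the 95% exact Poisson interval of its level reached 0.103 CPM in the shallowest library.

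Per transcript length, a different gene led the dehydrogenases at each passage. Aldh1a3 made up 94.2% of the summed FPKM of the 3 dehydrogenases in DPCs at low passage and 88.4% in DSCs. At high passage Aldh1a1 made up 92.4% of the sum in DPCs and 79.5% in DSCs. The sum itself was lower at high passage, at 5.998 FPKM after 12.6 in DPCs and at 8.41 after 12.7 in DSCs.

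**Figure D2:**
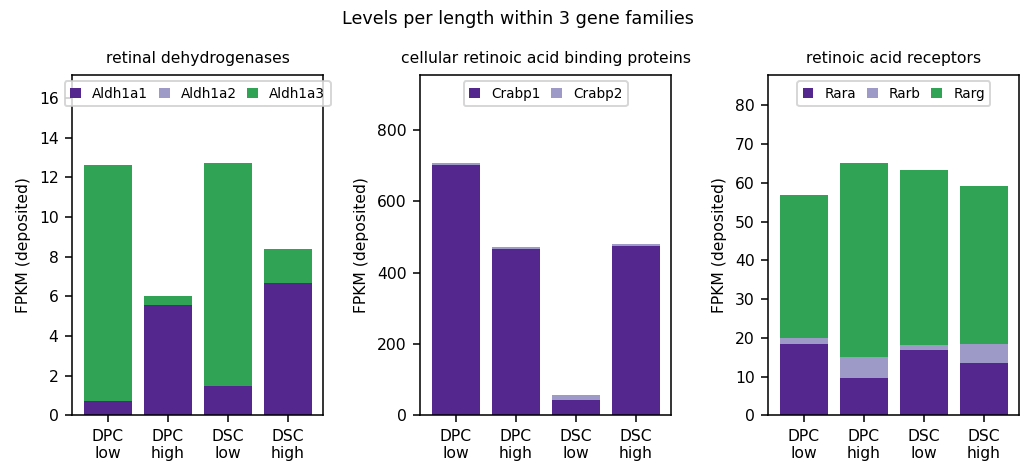
Stacked bars of deposited FPKM (y axis, level per transcript length) for the retinal dehydrogenases, the cellular retinoic acid binding proteins and the retinoic acid receptors, 1 library per bar and no error available. The dehydrogenase bar is mostly Aldh1a3 at low passage and mostly Aldh1a1 at high passage, and the receptor bar is mostly Rarg in every library.

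Crabp1 (ENSMUSG00000032291, chromosome 9, 54764748 to 54773110, plus strand) was the most abundant member by FPKM in every library, and it was where the cell types differed most. It had 22409 counts at low and 14584 at high passage in DPCs, and 1518 and 20405 in DSCs. Low-passage DSCs were the low library, and the other 3 lay within a range of 406 to 609 CPM. In DSCs it rose by 3.48 (3.41 to 3.56), 11.2-fold, while in DPCs the log2 change was -0.58 (-0.61 to -0.55). At passage 3 it was 15.2-fold higher in DPCs than in DSCs (log2 3.93, 3.85 to 4.003), number 35 from the top of that comparison. At passage 9 the difference was -0.14 (-0.17 to -0.11). In FPKM it was above 91.2% of the genes kept in low-passage DSCs and above at least 99.4% in the other libraries.

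Crabp2 (ENSMUSG00000004885, chromosome 3, 87948666 to 87953376, plus strand) was also out of line in low-passage DSCs, but in the other direction. DPCs had 230 counts of it at low and 210 at high passage, DSCs 608 and 253. Low-passage DSCs were the high library, and the others lay between 5.55 and 6.25 CPM. The log2 change with passage was -0.09 (-0.37 to 0.18) for DPCs. For DSCs it was -1.52 (-1.75 to -1.32), under the 4-fold line. Together the pair gave Crabp1 a share of 74.4% of their summed FPKM in low-passage DSCs and of 98.8% to 99.1% elsewhere. With Fabp5, a further carrier of retinoic acid, in the sum, Crabp1 held 34.3% in low-passage DSCs, where Fabp5 held 53.9%. In the other libraries Fabp5 held 19.9% to 23.1%.

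Rarb (ENSMUSG00000017491, chromosome 14, 16430842 to 16575472, minus strand), whose promoter holds the direct repeat printed above, had 174 counts in the passage 3 and 642 in the passage 9 library of DPCs, and 178 and 818 in those of DSCs. Both high-passage libraries were above both low-passage ones, and the cell types matched closely at each passage. The log2 change with passage was 1.91 (1.68 to 2.17) for DPCs and 1.92 (1.70 to 2.18) for DSCs, each just under the 4-fold line with an interval that spans it. Between cell types it was 0.01 (-0.30 to 0.32) at passage 3 and 0.00 (-0.16 to 0.15) at passage 9. Its exons share 1793 bases, 34.1% of its exonic length, with Top2b on the opposite strand, and whether counting used strand is not stated, so reads of the shared part cannot be told apart. Top2b had 7665 and 6376 counts in DPCs and 6420 and 7502 in DSCs, with passage changes of -0.23 and -0.04.

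Cyp26b1 (ENSMUSG00000063415, chromosome 6, 84571414 to 84593908, minus strand), which breaks retinoic acid down, had 841 counts at low and 3506 at high passage in DPCs, and 1343 and 2641 in DSCs. In DPCs it rose by 2.09 (1.99 to 2.21), just inside the 4-fold line with an interval that spans it. The log2 change of DSCs was 0.71 (0.62 to 0.81). Low-passage DPCs were below low-passage DSCs by a log2 difference of -0.63 (-0.76 to -0.51), and high-passage DPCs were above high-passage DSCs by 0.75 (0.68 to 0.83). It made up at least 96.3% of the summed FPKM of the 3 Cyp26 genes in every library. Cyp26a1, with the same type of promoter repeat as Rarb, had 0 counts in both DPC libraries and 4 in each DSC library.

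**Figure D3:**
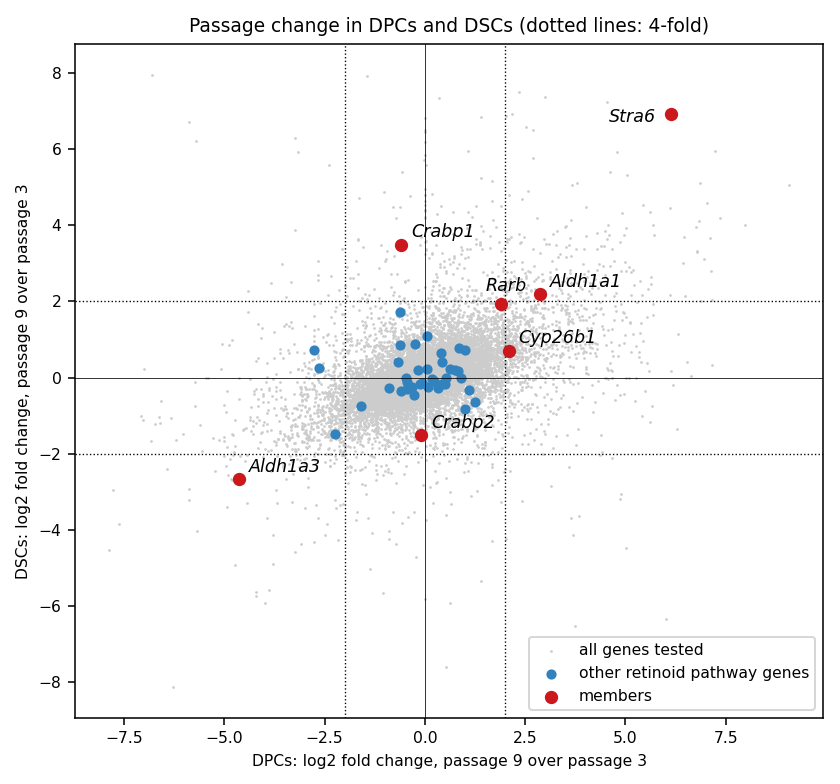
Log2 fold change from passage 3 to passage 9 in DPCs (x axis) and in DSCs (y axis) for 16734 genes (grey), the 38 other retinoid pathway genes kept (blue) and the 7 members kept (red). Stra6 and Aldh1a1 lie beyond the dotted 4-fold lines at upper right and Aldh1a3 at lower left. Crabp1 lies beyond the line for DSCs alone.

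Of the 7 members kept, Stra6, Aldh1a1 and Cyp26b1 rose in DPCs and Aldh1a3 fell. Rbp4 and Aldh1a2 did not pass the filter and were not called. Among all genes kept, 5.58% rose and 4.36% fell in that comparison. In DSCs Stra6, Aldh1a1 and Crabp1 rose and Aldh1a3 fell, beside 2.67% and 1.16% of all genes. In both cell types Stra6 and Aldh1a1 rose and Aldh1a3 fell, beside 1.27% and 0.508% of all genes. The members were chosen with these values known, so nothing is read from the shares. The median log2 change over the 7 members kept was 1.91 in DPCs and 1.92 in DSCs, against 0.03 and 0.00 over all genes kept. In both comparisons the median was the value of Rarb. The passage changes in DPCs and DSCs share no library.

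Between cell types at passage 3, Crabp1 was 4-fold or more higher in DPCs and no member was 4-fold higher in DSCs, where 1.52% and 2.77% of all genes were. At passage 9 no member passed in either direction, beside 2.5% and 3.91% of all genes. At both passages in 1 direction, 0.502% of all genes were higher and 1% lower in DPCs, and no member was. The largest difference among the members at passage 9 was that of Aldh1a3, at -1.87 (-2.35 to -1.49), after 0.07 (-0.03 to 0.18) at passage 3. Aldh1a1 was lower in DPCs at both passages, by log2 differences of -1.06 (-1.54 to -0.63) and -0.37 (-0.55 to -0.20). The cell type comparisons use the same 4 libraries as the passage comparisons and are not separate evidence.

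**Figure D4:**
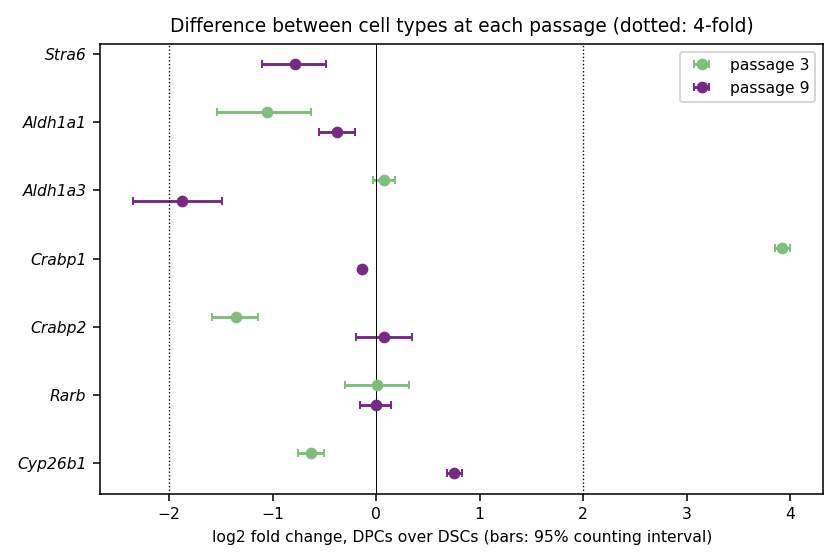
Log2 fold change of DPCs over DSCs (x axis) at passage 3 (green) and passage 9 (purple) for the 7 members kept, with 95% counting intervals. Stra6 has no value at passage 3, where both libraries had 0 counts. Crabp1 lies at 3.93 at passage 3 and at -0.14 at passage 9.

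The order of the members by FPKM also differed with passage. In DPCs at passage 3, Crabp1 (701 FPKM) was followed by Aldh1a3 (11.9), Crabp2 (6.19), Cyp26b1 (4.88), Rarb (1.43) and Aldh1a1 (0.736). At passage 9, Crabp1 (465) was followed by Cyp26b1 (19.97), Crabp2 (5.78), Aldh1a1 (5.54), Rarb (5.40), Stra6 (1.14) and Aldh1a3 (0.453). In DSCs the genes next to Crabp1 were Crabp2 (14.9) and Aldh1a3 (11.2) at passage 3, and Cyp26b1 (11.02) and Aldh1a1 (6.69) at passage 9. With 1 library per group, neighbours in these orders cannot be separated by a spread between samples.

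The rest of the pathway was examined with a list of 63 further genes, set up with earlier results of these data known, of which 38 passed the filter on low counts. In DPCs none of them rose and 3 fell, beside 5.58% and 4.36% of all genes. In DSCs none rose and none fell, beside 2.67% and 1.16% of all genes, and 35 were within 2-fold. With 38 genes, such counts are near those shares, and nothing is read from them. Their median log2 change was 0.05 in DPCs and -0.03 in DSCs. Adh7 and Cyp26c1 were among the genes that fell in DPCs. Adh7, an alcohol dehydrogenase that can oxidise retinol, fell from 628 to 128 counts in DPCs, a log2 change of -2.24 (-2.54 to -1.98). With 670 and 287 counts, its change in DSCs was -1.48 (-1.69 to -1.29). Cyp26c1, a further retinoic acid hydroxylase, had 11 counts at low and 0 at high passage in DPCs, and 17 and 35 in DSCs. Its log2 change in DPCs was -2.77 with the prior count of 2. Against the floor of 3 counts it is at least 3.58-fold less, so its call as a fall rests on the prior.

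The pair of enzymes known to act against each other on retinol and retinal stayed under the 4-fold line. For Rdh10, which oxidises retinol to retinal, the log2 change was 1.01 (0.85 to 1.17) with passage of DPCs and 0.73 (0.62 to 0.85) with that of DSCs. For Dhrs3, which reduces retinal back to retinol, the values were 0.22 (0.11 to 0.34) and -0.08 (-0.17 to 0.01). Fabp5, another cytosolic carrier of retinoic acid, had 8594 and 5412 counts in low- and high-passage DPCs and 3031 and 6575 in DSCs. These 3 genes were singled out after their values were seen. Of 7 genes of ester storage and carotene cleavage, Lrat and Rlbp1, named after their values were seen, had 0 counts in every library. All 8 receptor co-regulators passed the filter, with log2 changes from -0.45 to 1.004 in DPCs and from -0.82 to 0.21 in DSCs.

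Among the nuclear receptors Rarb was the smallest part of its family. Rarg made up 65.1% and 77.0% of the summed FPKM of the 3 retinoic acid receptors in DPCs at passage 3 and 9, and 71.3% and 68.8% in DSCs. The share of Rarb was 2.52% and 2.11% in low-passage DPCs and DSCs, and 8.28% and 8.50% at high passage. No receptor of the list passed the 4-fold line. With passage, 5.58% of all genes kept rose and 4.36% fell in DPCs, and 2.67% and 1.16% did in DSCs. For so few genes, nothing is read from this. The log2 change of Rara with passage was -0.89 for DPCs and -0.28 for DSCs, and that of Rarg was 0.43 and -0.17. Of the retinoid X receptors, Rxra had changes of -0.16 and 0.21 and Rxrb of -0.11 and -0.16, and Rxrg had at most 10 counts.

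Of 12 further genes known to respond to retinoic acid in other systems, 8 passed the filter. None of the 8 passed the 4-fold line with passage in either cell type. Of all genes kept, 5.58% rose and 4.36% fell in DPCs, and 2.67% and 1.16% did in DSCs. With 8 genes, nothing is read from this count. Their changes ran from -0.67 to 1.25 in DPCs and from -0.64 to 1.71 in DSCs. The highest value in DSCs was that of Tgm2, a transglutaminase, with 1227 counts at low and 4842 at high passage there, beside 737 and 464 in DPCs. At passage 9 it was 8.19-fold lower in DPCs than in DSCs. Rarres2, the chemerin gene, was 4.36-fold lower in DPCs at passage 9, on 19 and 113 counts, and Cyp26c1 had 0 counts there against 35 in DSCs. Meis2, a homeobox gene, was 4.56-fold lower in DPCs than in DSCs at passage 3.

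The genes with the profile most like that of a member were found by the Euclidean distance of log2 CPM, centred on the mean of the 4 libraries, among all genes kept. This was done for the 3 members that passed in both cell types. For Stra6 they were Klra4, Ranbp3l and Dmrtc1a, at distances of 1.34, 1.40 and 1.45. Klra4, a lectin-like receptor gene, had 4 and 132 counts in DPCs and 0 and 351 in DSCs, and Ranbp3l had 17 and 601 in DPCs and 17 and 913 in DSCs. For Aldh1a1 they were Gm44270, Gm42793 and Spp1, at 0.20, 0.29 and 0.33. Spp1 encodes osteopontin and had 39849 and 204612 counts in DPCs and 71137 and 404313 in DSCs. For Aldh1a3 they were Cdc20, Ccl9 and Oacyl, at 0.46, 0.59 and 0.68. Cdc20, an activator of the anaphase-promoting complex, had 1863 and 97 counts in DPCs and 1597 and 392 in DSCs. A profile over 4 libraries is matched by many genes, so the likeness is a description of these libraries.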

How the data were processed

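RNA from DPCs and DSCs at passage 3 and passage 9 was sequenced as 1 library per group. Per the study's methods, poly(A) RNA was sequenced from both ends, and the labels and the methods name different library kits. The authors deposited raw counts per gene, whole numbers that were not normalized, and FPKM values that they had scaled for transcript length and depth. The submitters' processing notes name Bowtie 0.12.2 and the builds mm8 and mm9, while the positions in the deposited tables are those of GRCm38. The counting program and its use of strand are not given in the sources used here. Even counts were in excess in every library (1339 genes at 2 counts and 583 at 3 in the first DPC library), as when both mates of a pair are counted.

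Counts were scaled with TMM factors in edgeR 4.0.16 (R 4.3.3). Log2 CPM used a prior count of 2, and genes with a mean count of at least 10 were kept. Scripts were tested on simulated data. The deposited FPKM served to compare levels between genes. No test was made, since each group has 1 library. Alternatives were DESeq2 1.42.0 size factors, other scalings, prior counts and filters, and FPKM with a pseudocount. Overlaps were taken from GENCODE M21 and promoter sequences from RefSeq. Total counts of 34981284 to 47604059 per library set the counting error, given as exact 95% Clopper-Pearson intervals.

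The members and gene lists were chosen with earlier results of these data known. Named genes were the members, the pathway genes at 4-fold or more in a comparison, the receptors and the 3 nearest profiles. Exceptions are named as such, and 1 gene of the pathway list is counted but not reported here.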

Additional observations from a re-analysis of the deposited data

Results flagged for a closer look

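Some genes had passage changes of opposite sign in DPCs and DSCs, with counting intervals on opposite sides of 0 also after counts were halved. None of these differences was tested, since each group had 1 library. For Crabp1 the passage change in DPCs minus that in DSCs was -4.07 on the log2 scale. For Tgm2 this difference was -2.34 and for Fabp5 it was -1.48. For the other genes with values in the report the differences were 0.60 for Meis2, 0.59 for Rarg and -0.37 for Rxra. Among the pathway genes under the 4-fold line in every comparison, named after their values were seen, the same pattern was found for Rarres1 (1.89), Zfp423 (1.83), Nr2f2 (1.41) and Ncor1 (0.67).

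For Cyp26b1 the difference between DPCs and DSCs changed sign with passage. The log2 difference at low passage minus that at high passage was -1.38, again untested. The sign also changed for some of the genes listed above. Crabp1 had a difference of 3.93 at low and -0.14 at high passage. Rarg, with 108 CPM in DPCs and 143 in DSCs at low passage, had 146 and 128 at high passage. By CPM the sign also changed for Rxra, Rarres1 and Ncor1.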

How the results depend on the processing

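Each member's log2 change kept its direction under every scaling, prior count, filter and pseudocount tried, apart from Rarb between cell types at high passage, which lay between -0.0048 and 0.099. The members' 4-fold calls changed under 1 setting. With the deposited FPKM and a pseudocount of 1, which shrinks changes of genes with a low FPKM by construction, the number of members that rose was 0 in DPCs and 1 in DSCs (3 in each with counts), and the median over the members was 1.10 in DPCs and 1.37 in DSCs. Stra6 then had 1.10 in DPCs and 1.46 in DSCs, Aldh1a1 1.91 and 1.63, and Cyp26b1 1.83 in DPCs, and of the other pathway genes 0 fell in DPCs. Without a filter on low counts, 3 of the other pathway genes rose and 5 fell in DPCs and 1 fell in DSCs, against 0, 3 and 0 with the filter. With counts halved, an alternative chosen after seeing the data, all 22 of 27 member intervals that excluded 0 still did so. No paired analysis was made, and each group has 1 library. Depth limits Rbp4 and Aldh1a2, which were at or near 0 counts.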
